A study of Mus musculus with 8 samples.

Results

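The transcripts of the NF-kB dimer subunits and of the proteins that restrain them were described in blood stem cells of mice homozygous for elektra, a loss-of-function mutation of Slfn2, and of wildtype littermates. The 10 genes were chosen by name, as the genes encoding the 5 Rel-homology subunits (Nfkb1, Nfkb2, Rel, Rela and Relb), 3 inhibitors of the IkB family (Nfkbia, Nfkbib and Nfkbie) and 2 genes named for their induction by tumour necrosis factor (Tnfaip3 and Tnfaip2). Each had 1 feature on the array, and all 10 were among the 15710 genes tested, out of 30802 gene symbols listed. Tnfaip2 is known as a target of the pathway rather than as an inhibitor of it.

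The elektra samples were Slfn2 elektra/elektra mice and the wildtype samples were Slfn2 wt/wt mice bred from the same matings, both on a C57BL/6 background, untreated and with no age given. The elektra allele is carried in the germ line, so all cells of those mice have it. Stem cells were sorted from bone marrow by the surface phenotype LSK, CD150+, CD48- and high CD9, and 4 arrays were made per genotype. By the sample notes each sample joins the bones of 2 mice, but by the series text each genotype comprised 4 mice, so the number of animals behind an array is not settled.

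NF-kB proteins act as dimers that bind DNA and switch on genes of inflammation, survival and immunity. In resting cells IkB proteins hold the dimers in the cytoplasm. Signals from tumour necrosis factor, interleukin-1 or toll-like receptors activate the IkB kinase, IkB is degraded, and the freed dimers induce, among other genes, Nfkbia and Tnfaip3, which end the signal. A second branch, driven by receptors such as the lymphotoxin beta receptor, processes the Nfkb2 product and acts through Relb. In blood stem cells the pathway is known for its part in survival and in the response to inflammatory cytokines.

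Array signals were log2 values made with RMA, and a difference of 1 is a doubling of signal. The array medians lay between 6.11 and 6.26. Precision was limited by the number of arrays, with a typical (median) standard error of 0.12 for a log2 difference. Slfn2 itself was at 8.17, 7.90, 7.79 and 8.08 in elektra and at 7.48, 7.22, 7.53 and 8.41 in wildtype, so the genotypes overlapped at the transcript that carries the mutation. Defining stem cell markers were well above the level filter of 6.17, with Kit at 11.87 ± 0.06 in elektra and 12.03 ± 0.03 in wildtype and Procr at 9.1 ± 0.20 in elektra and 9.0 ± 0.13 in wildtype (SD, n = 4 each), and Cd48, which the sort selects against, lay below the filter at 6.06 ± 0.31 in elektra and 5.93 ± 0.22 in wildtype. All 5 measured T and NK cell markers and 5 of 6 B cell markers lay below the filter too. Both arrays numbered 3 had a low signal of Xist, which is transcribed from the inactive X, at 5.06 in elektra and 5.37 in wildtype, against 10.26 to 10.79 on the other 6 arrays.

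Several of these genes are themselves known targets of NF-kB, and the sequences through which the dimers bind can be read in their promoters. The windows shown each hold a match to the 10-base NF-kB consensus close to a start site, 1 for each gene that has one and both sites of the first Nfkb2 promoter. Promoters, taken as 250 bases before to 50 bases after each start site in the RefSeq annotation of GRCm38.p6, were held for 8 of the 10 genes, in 11 promoters. The consensus was found on either strand in 8 of these 11 promoters, belonging to 6 genes, and in 8.46% of all 32851 promoters of that length. The looser pattern GGGNNNNNCC was found in 10 of the 11 and in 50.8% of all. Each line gives the gene strand, 5′ to 3′, with the match in capitals, and a match is a description of these letters only.
Nfkbia: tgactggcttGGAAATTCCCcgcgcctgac
Tnfaip3: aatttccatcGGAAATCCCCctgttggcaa
Rel: cgtaagcagcGGGAAATCCCcccccctccc
Nfkbie: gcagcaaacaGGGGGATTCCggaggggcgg
Tnfaip2: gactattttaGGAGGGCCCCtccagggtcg
Nfkb2, upstream match: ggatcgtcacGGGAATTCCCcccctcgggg
Nfkb2, match next to the start: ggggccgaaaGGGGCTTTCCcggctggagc
The Nfkbia window lies at chr12:55492657-55492686 on the minus strand, with the match 29 to 20 bases before the start. The Tnfaip3 window is at chr10:19015403-19015432 (minus strand, match 12 to 3 bases before the start) and the Rel window at chr11:23771042-23771071 (minus strand, match 92 to 83 bases before). The Nfkbie window is at chr17:45555584-45555613 (plus strand, match 106 to 97 bases before) and the Tnfaip2 window at chr12:111442627-111442656 (plus strand, match 24 to 15 bases before). The Nfkb2 windows are at chr19:46304688-46304717 (match 39 to 30 bases before) and chr19:46304716-46304745 (match 11 to 2 bases before), both on the plus strand. In Rel and at the upstream Nfkb2 site a second match on the other strand overlaps the printed one, shifted by 1 base. Further matches, not printed, lie in Tnfaip3 and at the other Nfkb2 start sites. The Nfkbia and Tnfaip3 matches and the Tnfaip2 match read as the consensus on the strand opposite to the gene.

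None of the 10 genes passed an adjusted p of 0.05 over all genes, with adjusted p-values from 0.339 to 0.953 (limma, Benjamini-Hochberg), where 6 of all genes tested, or 0.0382%, did (0.0255% in the higher and 0.0127% in the lower direction). At an unadjusted p of 0.05, 2 of the 10 were higher in elektra, Nfkb1 and Tnfaip2, and 0 were lower. The same threshold was met by 7.02% of all genes in the higher and 3.95% in the lower direction. The members split evenly, 5 with a higher and 5 with a lower mean in elektra, with a median log2 difference of -0.0049 against 0.01 over all genes. Within the 10, 4 of the 5 subunits averaged higher in elektra (median 0.23) and all 3 IkB inhibitors averaged lower (median -0.11), but no member of either group passed the adjusted test. The inhibitors stayed lower under every scaling tried, whereas among the subunits Rela turned lower with quantile normalization and Relb turned higher with arrays centred on their medians. In sorted bulk cells, fewer cells of a type and less RNA per cell cannot be told apart.

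**Figure D1:**
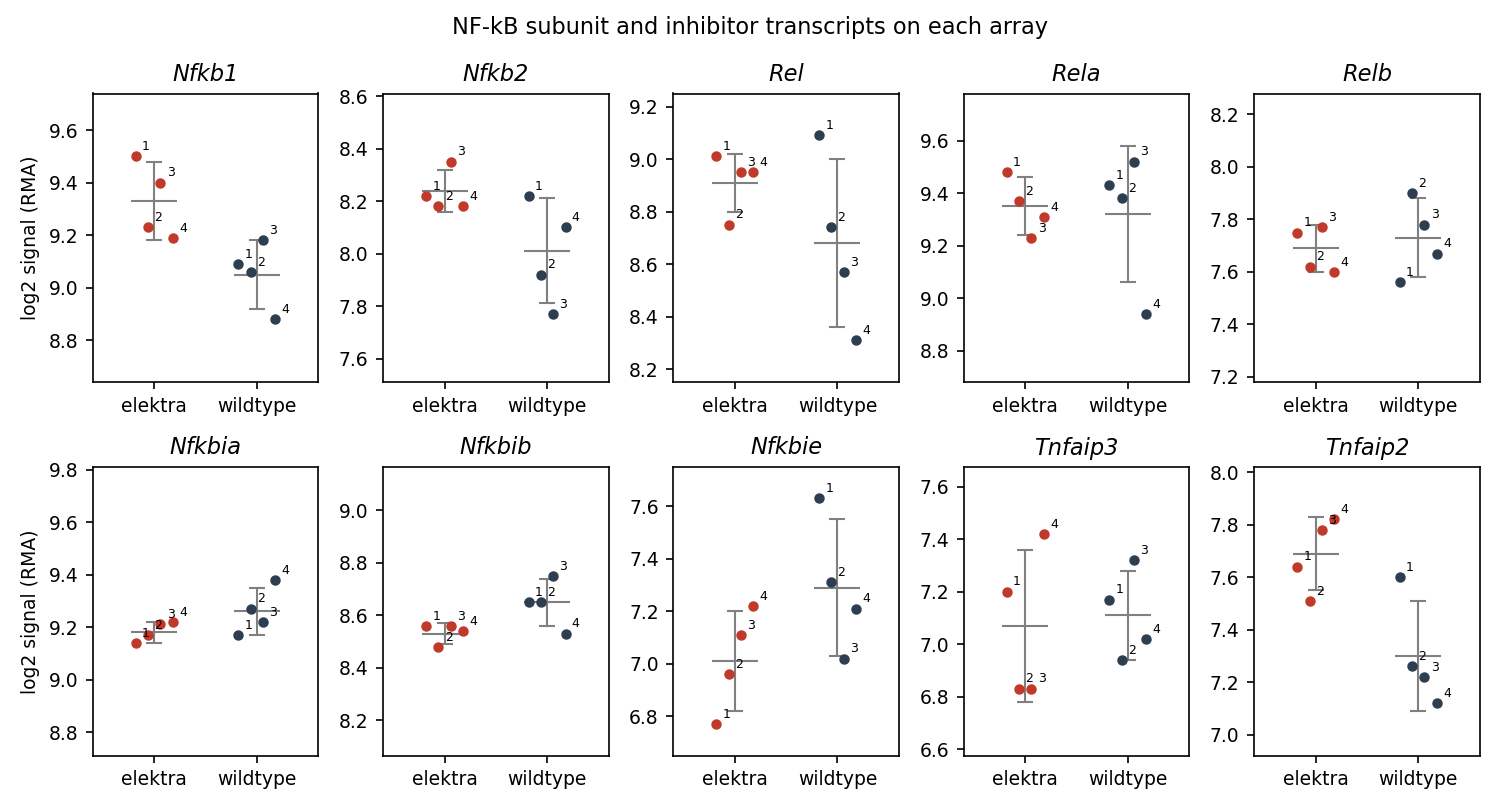
Log2 RMA signal of each of the 10 genes on the 4 elektra and 4 wildtype arrays, each panel spanning the same range of 1.1 log2 units. Points are arrays with their replicate number, bars the mean ± SD; the genotypes separate for Nfkb1, and only by 0.005, and overlap for the other 9 genes.

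Nfkb1 encodes a precursor that is cut to a DNA-binding subunit without an activation domain of its own. Its log2 signal was 9.50, 9.23, 9.40 and 9.19 in elektra, against 9.09, 9.06, 9.18 and 8.88 in wildtype. The genotypes did not overlap, but the lowest elektra array, replicate 4, lay only 0.005 above the highest wildtype array, replicate 3. It was the only member so separated, where 3.90% of all genes were separated in the higher direction. The means were 9.33 ± 0.15 in elektra and 9.05 ± 0.13 in wildtype (SD, n = 4 each), a log2 difference of 0.28 with a 95% interval of 0.04 to 0.51, or 1.21-fold, which did not pass (limma adjusted p = 0.388).

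Nfkb2, the subunit precursor of the second branch, read 8.22, 8.18, 8.35 and 8.18 in elektra, against 8.22, 7.92, 7.77 and 8.10 in wildtype. The elektra arrays were close together, and wildtype replicate 1 was as high as most of them. Its log2 difference was 0.23 (95% interval -0.02 to 0.48; limma adjusted p = 0.476). The difference was 0.15 without wildtype replicate 3.

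Rel encodes c-Rel, an activating subunit best known from lymphocytes. It was at 9.01, 8.75, 8.95 and 8.95 in elektra, against 9.09, 8.74, 8.57 and 8.31 in wildtype. The highest and the lowest of the 8 values were both wildtype arrays, replicates 1 and 4, and these set the size of the difference. It was 0.24 with all arrays (95% interval -0.10 to 0.57; limma adjusted p = 0.578), 0.37 without wildtype replicate 1 and 0.12 without wildtype replicate 4.

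Rela and Relb, which encode the activating subunits of the main and the second branch, had nearly equal means. Rela was at 9.48, 9.37, 9.23 and 9.31 in elektra, against 9.43, 9.38, 9.52 and 8.94 in wildtype. Wildtype replicate 4 was again the lowest array, and the log2 difference of 0.03 (95% interval -0.26 to 0.32; limma adjusted p = 0.953) was -0.10 without it. Relb was at 7.75, 7.62, 7.77 and 7.60 in elektra, against 7.56, 7.90, 7.78 and 7.67 in wildtype. The wildtype arrays enclosed the elektra arrays, and the log2 difference was -0.04 (95% interval -0.26 to 0.18; limma adjusted p = 0.911). These intervals leave room for a change of about 1.25-fold up in Rela and a factor of 0.834 down in Relb. Both signs turned under the scalings named above, to -0.03 for Rela and 0.01 for Relb.

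The inhibitor transcripts lay lower in elektra by small amounts. Nfkbia encodes IkB alpha, the inhibitor that NF-kB itself induces within minutes. It was at 9.14, 9.17, 9.21 and 9.22 in elektra, against 9.17, 9.27, 9.22 and 9.38 in wildtype, a log2 difference of -0.08 (95% interval -0.26 to 0.11; limma adjusted p = 0.766). All 4 elektra arrays lay below the wildtype mean, but the genotypes overlapped, and the difference was -0.04 without wildtype replicate 4. Nfkbib, which encodes IkB beta, was at 8.56, 8.48, 8.56 and 8.54 in elektra, against 8.65, 8.65, 8.75 and 8.53 in wildtype. Here wildtype replicate 4 alone fell among the elektra values, and the log2 difference of -0.11 did not pass (95% interval -0.30 to 0.08; limma adjusted p = 0.638).

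Nfkbie encodes IkB epsilon, a further induced inhibitor. It was at 6.77, 6.96, 7.11 and 7.22 in elektra, against 7.63, 7.31, 7.02 and 7.21 in wildtype. Its log2 difference, -0.28, was the lowest among the 10 genes (95% interval -0.60 to 0.04; limma adjusted p = 0.5). It came to -0.17 without wildtype replicate 1, the array of highest signal.

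Nfkbia and Nfkbib were among the steadiest transcripts on these arrays. Their within-genotype SD was 0.068 log2 each, and 3.2% of all genes tested had a smaller one, against a median over all genes of 0.172. Rel, at 0.243, Tnfaip3, at 0.239, Nfkbie, at 0.227, Rela, at 0.197, and Tnfaip2, at 0.176, spread more than the median gene.

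Tnfaip3 encodes A20, a ubiquitin-editing enzyme that shuts off the signal at the receptor complexes. It was at 7.20, 6.83, 6.83 and 7.42 in elektra, against 7.17, 6.94, 7.32 and 7.02 in wildtype. The highest and the lowest values were elektra arrays, and the log2 difference was -0.04 (95% interval -0.37 to 0.29; limma adjusted p = 0.942), which turned to 0.01 when arrays were centred on their medians. Leaving out elektra replicate 4 gave -0.16.

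Tnfaip2 encodes M-Sec, a protein of membrane extensions that tumour necrosis factor induces and that is prominent in myeloid and endothelial cells. It was at 7.64, 7.51, 7.78 and 7.82 in elektra, against 7.60, 7.26, 7.22 and 7.12 in wildtype. Of the 4 elektra arrays, 3 lay above all wildtype arrays, and only wildtype replicate 1 reached into the elektra range. The means were 7.69 ± 0.14 in elektra and 7.30 ± 0.21 in wildtype (SD, n = 4 each), a log2 difference of 0.39 (95% interval 0.12 to 0.66), or 1.31-fold, the largest among the 10 genes, with an adjusted p of 0.339 (limma). Without wildtype replicate 1 it was 0.49, with an adjusted p of 0.180 (range over its alternatives 0.180 to 0.631).

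Markers of monocytes and macrophages, cells rich in Tnfaip2, overlapped between genotypes. Of 7 such markers 4 were tested, 0 passed an unadjusted p of 0.05, and their summed log2 level ran from 29.62 to 30.17 in elektra and from 29.09 to 30.91 in wildtype. Ly6c2 and Ccr2, which define inflammatory monocytes, lay below the filter at 5.27 ± 0.29 and 4.61 ± 0.09 in elektra and at 5.22 ± 0.28 and 4.49 ± 0.15 in wildtype (SD, n = 4 each). Of 5 stromal and endothelial markers 3 were tested, and each overlapped between genotypes, with Cdh5 at 0.42, Col1a1 at -0.09 and Emcn at -0.39. Emcn alone met an unadjusted p of 0.05, in the direction in which 3.95% of all genes did. Their summed level was 20.93 to 22.24 in elektra and 21.41 to 21.99 in wildtype. Granulocyte markers stood apart on elektra replicate 4, which was the highest array for 5 of the 7 and also for Tnfaip2, Tnfaip3 and Ptgs2. Ngp, which encodes a granule protein of neutrophils, was at 8.78 there, against 5.32 to 6.08 on the other elektra arrays and 5.65 to 7.10 in wildtype. Of the 7 markers 3 were tested and 0 met an unadjusted p of 0.05, and their summed level was 18.17 to 23.67 in elektra and 18.90 to 20.51 in wildtype. Without elektra replicate 4 the elektra sum reached 18.77, and the log2 difference of Tnfaip2 was 0.34. The part of monocyte, endothelial or granulocyte markers in the values of Tnfaip2, Tnfaip3 and Ptgs2 was not tested.

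Of 5 markers of multipotent progenitors 4 were tested, and 1 passed, Plac8, a marker of early progenitors, at a log2 difference of 1.30 (limma adjusted p = 0.0114). Cd34 was at 0.39 (limma adjusted p = 0.321). Plac8 and Cd34 were separated by genotype, as 3.90% of all genes were in the higher direction, and Flt3 at 0.20 and Cd27 at 0.14 overlapped. The summed level of the 4 was 34.66 to 35.38 in elektra and 32.55 to 34.03 in wildtype, but without Plac8 the sums overlapped, at 26.28 to 26.94 in elektra and 25.63 to 26.95 in wildtype. Of 5 megakaryocyte markers 4 were tested and 0 passed. They summed to 33.72 to 34.27 in elektra and to 32.64 to 32.88 in wildtype. Pf4 at 0.61 and Itga2b at 0.39 were separated by genotype, beside the same 3.90% of all genes, and Gp1bb at 0.07 and Gp9 at 0.01 overlapped. The part of the progenitor and megakaryocyte markers in the values of Tnfaip2 and Nfkb1 was not tested.

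The Tnfaip2 profile over the 8 arrays had close counterparts. It had the largest SD over all arrays among the members, 0.26, and the genes of smallest root mean square difference from it, after centring each gene on its own mean, were the small nucleolar RNA feature Gm22270 at 0.056, Cdkl3 at 0.072, the DNA helicase gene Blm at 0.080, the translation factor gene Eif5b at 0.084 and the signal peptidase subunit gene Spcs3 at 0.085. The median over all genes was 0.294. Each of the 5 had its highest wildtype value on replicate 1, as Tnfaip2 had, which follows from their choice by likeness over these same arrays.

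**Figure D2:**
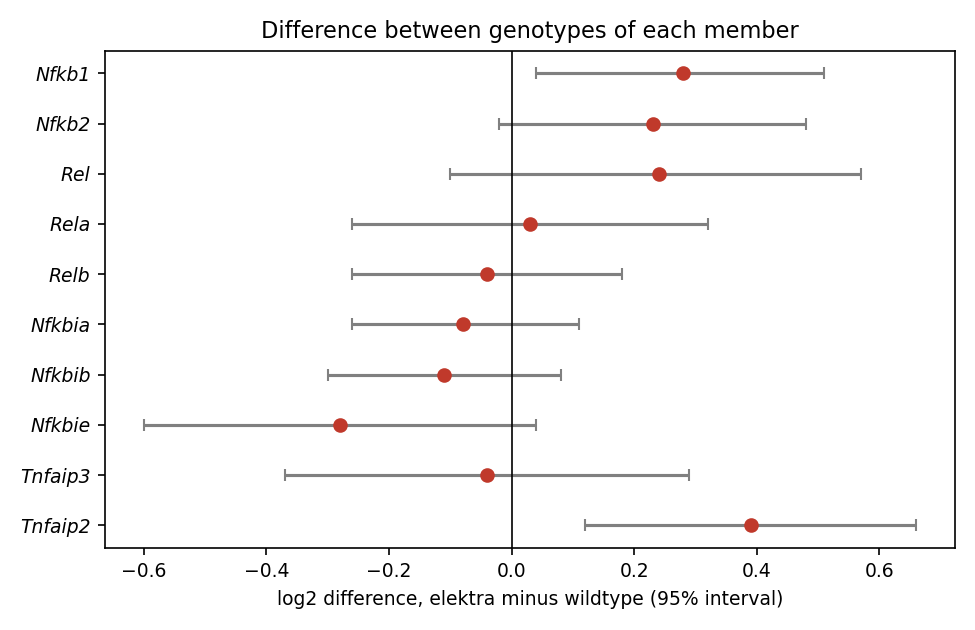
Log2 difference, elektra minus wildtype, of each gene with its 95% interval from limma (n = 4 and 4). The intervals of Nfkb1 and Tnfaip2 lie above 0 and those of the other 8 genes include 0, before any adjustment for the number of genes tested.

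The arrays did not order the subunits and the inhibitors alike. Averaged over the 5 subunits as deviations from each gene's 8-array mean, elektra arrays lay between 0.16 (replicate 1) and 0.0016 (replicate 2), and wildtype arrays between 0.05 (replicate 1) and -0.25 (replicate 4). Averaged over the 3 IkB inhibitors, elektra arrays lay between -0.17 and 0.01 and wildtype arrays between 0.01 and 0.16. Elektra replicate 1 had the highest subunit mean and the lowest inhibitor mean, and wildtype replicate 4 had the lowest value of 4 of the 10 genes.

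Immediate early genes, which respond to the same stimuli and to cell handling, lay lower in elektra. All 23, a list drawn up with this direction known, averaged lower, where 7362 of all 15710 genes did. Their median log2 difference was -0.42, against 0.01 over all genes. Of the 23, 11 met an unadjusted p of 0.05 in the lower direction, beside 3.95% of all genes, and 0 passed the adjusted threshold. Their array means ran from -0.40 to 0.16 in elektra and from -0.06 to 0.57 in wildtype, and overlapped only through elektra replicate 3. The other elektra arrays, replicates 1, 2 and 4, were at -0.20, -0.30 and -0.40. At each replicate number the elektra mean lay below the wildtype mean, and replicate 3 was the highest in both genotypes. Wildtype replicate 3, which had the highest immediate early mean, was at 0.01 for the IkB inhibitors. Nr4a1 at -0.71, Dusp2 at -0.50 and Egr1 at -0.57 had the smallest p among them, with adjusted p-values of 0.132, 0.301 and 0.350 (limma). Beside these, the induced inhibitor genes Nfkbie, Nfkbia and Tnfaip3 were at -0.28, -0.08 and -0.04.

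**Figure D3:**
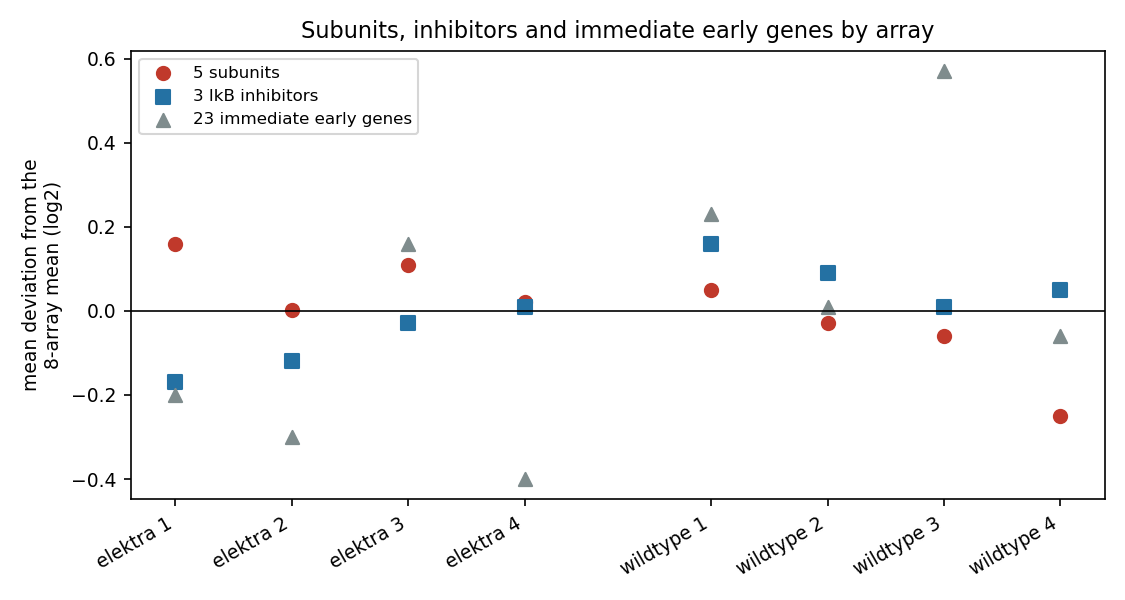
Mean deviation of 5 subunit genes, 3 IkB inhibitor genes and 23 immediate early genes from each gene's mean over the 8 arrays, in log2 units, by array. Subunit means are highest on elektra replicate 1 (0.16) and lowest on wildtype replicate 4 (-0.25), and immediate early means are highest on wildtype replicate 3 (0.57).

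Around these 10 genes, 104 further genes of the pathway were listed by role, of which 79 were tested. None passed the adjusted threshold, and their median log2 difference was 0.02. An unadjusted p of 0.05 was met by 2 in the higher and 2 in the lower direction, beside the 7.02% and 3.95% of all genes given above.

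Ligand transcripts were mostly weak. Of 10 ligand genes 7 lay below the filter, among them Tnf at 6.10 ± 0.15 in elektra and 6.16 ± 0.12 in wildtype and Il1b at 5.48 ± 0.72 in elektra and 4.91 ± 0.19 in wildtype (SD, n = 4 each). The spread of Il1b in elektra came mostly from replicate 1, at 6.47. Ltb, which encodes lymphotoxin beta, was the ligand with a strong signal, at 10.41, 10.38, 10.41 and 10.56 in elektra, against 10.82, 10.92, 10.77 and 10.91 in wildtype. The genotypes were separated, where 2.37% of all genes were separated in that direction, and the log2 difference of -0.42 missed the threshold (limma adjusted p = 0.167) except with a trended and robust variance model (0.0499; range over all alternatives 0.0499 to 0.431). Il18 was at 0.14, with 0.06 without wildtype replicate 4 and 0.25 without wildtype replicate 3. Tnfsf14 was at 0.06, with 0.22 and -0.05 without the same arrays.

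Of 31 receptor and proximal adaptor genes 23 were tested, 9 with a higher and 14 with a lower mean. An unadjusted p of 0.05 was met by 2 in the higher and 0 in the lower direction, beside 7.02% and 3.95% of all genes. Irak4, the kinase that relays interleukin-1 and toll-like receptor signals, was at 8.22, 8.43, 8.11 and 8.12 in elektra, against 7.82, 7.83, 7.92 and 7.77 in wildtype. Ripk2, the kinase downstream of the NOD receptors, was at 7.93, 8.32, 8.11 and 7.97 in elektra, against 7.87, 7.59, 7.86 and 7.61 in wildtype. Both were separated by genotype on every array, as 3.90% of all genes were in that direction. Their log2 differences were 0.38 and 0.35, and neither passed (limma adjusted p = 0.263 and 0.359). Ly96, below the filter, was at 5.51 ± 0.58 in elektra and 4.55 ± 0.33 in wildtype (SD, n = 4 each), with the genotypes separated. Its log2 difference in the fit without the filter was 0.96, which did not pass (limma adjusted p = 0.433). The receptor genes for tumour necrosis factor, Tnfrsf1a at -0.20 and Tnfrsf1b at -0.04, and for lymphotoxin beta, Ltbr at 0.03, did not pass either; these 3 were named after their values were seen.

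Between receptor and dimer stand the kinases and the ubiquitin ligases that release the dimers. Of 10 IkB kinase and upstream kinase genes, 8 averaged higher and 2 lower (median 0.09), and 0 met an unadjusted p of 0.05. Those of smallest p were Ikbkb, the main IkB kinase, at 0.19, Map3k14, the kinase of the second branch, at -0.17, and Chuk at 0.21. Of 13 tested ubiquitin ligase and adaptor genes, 8 averaged higher (median 0.01), with Ripk1 at 0.20, Ube2n at 0.20 and Traf6 at -0.19. Of 11 genes that act as brakes, 7 averaged higher (median 0.12), with the ligase gene Itch at 0.24, Rnf11 at 0.23 and Tnip1, an A20 partner, at -0.15. In both sets 0 met an unadjusted p of 0.05. Single arrays moved several of these values. Chuk was at 0.06 without wildtype replicate 2 and 0.34 without wildtype replicate 4, and turned to -0.05 with the array interquartile range as a covariate. Map3k14 was at -0.09 without wildtype replicate 1 and -0.28 without wildtype replicate 4, Traf6 at -0.10 without elektra replicate 1 and -0.31 without elektra replicate 4, and Rnf11 at 0.14 without wildtype replicate 3.

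The atypical IkB genes, whose products act in the nucleus, were at -0.17 for Nfkbiz, 0.09 for Bcl3 and -0.08 for Nfkbid. Nfkbiz came to -0.03 without wildtype replicate 3 and to -0.27 without wildtype replicate 2, and the signs of Bcl3 and Nfkbid turned with 1 array left out, to -0.03 without wildtype replicate 3 for Bcl3 and to 0.05 without elektra replicate 3 for Nfkbid. Of 16 tested target genes, 8 averaged higher and 8 lower (median 0.01), and an unadjusted p of 0.05 was met by 0 in the higher and 1 in the lower direction. That gene was Ccl4, which encodes a chemokine, at 8.31, 8.38, 8.64 and 8.18 in elektra, against 8.56, 8.62, 8.86 and 8.89 in wildtype. Elektra replicate 3 lay inside the wildtype range, and the log2 difference was -0.36 (limma adjusted p = 0.359). Ptgs2, the inducible cyclooxygenase gene, was at 0.43 with a standard error of 0.20, and at 0.24 without elektra replicate 4, its highest array. Sod2, the mitochondrial superoxide dismutase gene, was at 0.24 (limma adjusted p = 0.459).

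**Figure D4:**
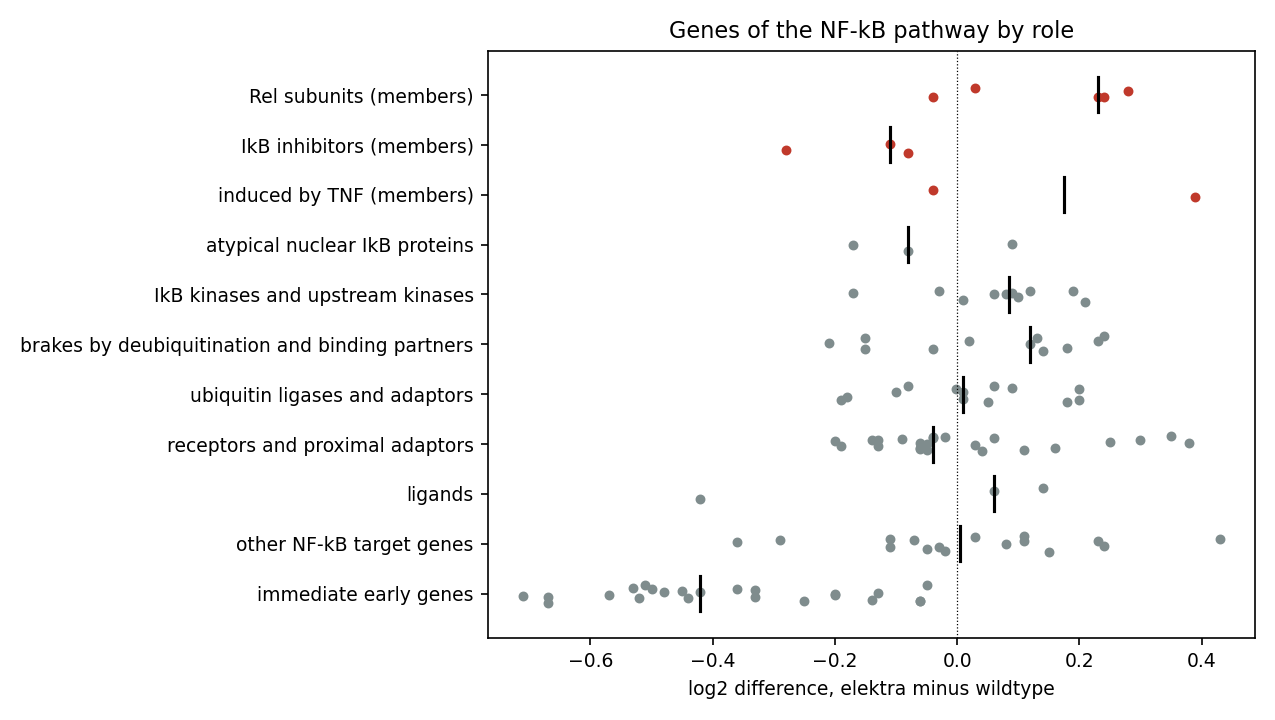
Log2 difference, elektra minus wildtype, of each tested gene by role in the NF-kB pathway, with the median of each list as a black bar. The 10 genes described are red and other genes grey; the immediate early list was drawn up with its direction known, and the other target genes lie 8 above and 8 below 0.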

How the data were processed

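The authors made the deposited log2 signals with RMA in Affymetrix Expression Console 1.4, per the submitters' processing notes; neither the array design nor the annotation release is stated in the labels. The deposited workbook also holds the authors' unadjusted p-value and a fold change with a minus sign (a score) for transcripts lower in elektra, per the file headers. It was used in place of the deposited series table, from which it differed by at most 0.158 log2.

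Features with 1 gene symbol and a mean at or above the median of feature means (6.17) were kept, the highest feature per symbol, which left 15710 genes. Elektra minus wildtype was fitted without covariates in limma 3.58.1 (lmFit, eBayes; R 4.3.3) as a two-sided test, and the Benjamini-Hochberg adjustment ran over all genes tested. The procedure was tested on simulated data. Labels call the samples biological replicates.

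The 10 genes, the lists of pathway and marker genes and the tests were chosen with earlier results of these data known. Named were the 10 genes, up to 3 genes of smallest p per pathway list, the stem cell markers, and the 5 genes whose profile was nearest to that of the member of largest SD; 1 gene that this rule names is not reported here. Tnf, Il1b, Ly96 and the receptor genes of tumour necrosis factor and lymphotoxin beta were added after their values were seen. Markers of other cell types, which the naming rule does not cover, are given as levels, sums of levels and differences from the same fit. Xist and Slfn2 are given as levels. The sequences are from RefSeq, GRCm38.p6. Alternatives were the filter, the normalization, the variance model, array weights, averaged features, the series table, replicate number as a block, the array interquartile range as a covariate, each array left out, and both arrays of low Xist left out.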

Additional observations from a re-analysis of the deposited data

Results flagged for a closer look

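Of 78 sets of 4 arrays examined for 1 array far from the other 3, 3 were marked, and chance marks about 1 in 20. Bcl3 was at 7.25 on elektra replicate 2, against 7.43 to 7.44 on the other elektra arrays. Cdkl3 was at 7.0 on wildtype replicate 1, against 6.56 to 6.63, and Blm was at 7.94 on that array, against 7.5 to 7.56; both were named for their likeness to Tnfaip2, which was also high there. None of the 10 subunit, inhibitor and Tnfaip genes was marked.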

How the results depend on the processing

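None of the 10 genes passed an adjusted p of 0.05 under any of the 19 alternatives (3 of them, Nfkbie, Tnfaip3 and Tnfaip2, were not tested under the stricter filter). Nfkb1 (0.22 to 0.33), Nfkb2 (0.11 to 0.30), Rel (0.11 to 0.37) and Tnfaip2 (0.30 to 0.49) stayed higher and Nfkbia (-0.13 to -0.03), Nfkbib (-0.17 to -0.06) and Nfkbie (-0.40 to -0.17) stayed lower in elektra. Rela turned to -0.03 with quantile normalization and -0.05 with the array interquartile range as a covariate (-0.10 to 0.10 with 1 array left out). Relb came to 0.01 after centring of each array on its median and to 0.05 with that covariate (-0.10 to 0.02), and Tnfaip3 to 0.01 with centring and 0.11 without both arrays of low Xist (-0.16 to 0.04). Without those arrays Bcl3 was at -0.04 (-0.03 to 0.21 with 1 array left out), Nfkbid at 0.13 (-0.22 to 0.05) and Tnfsf14 at -0.08 (-0.05 to 0.22), and Chuk was at -0.05 with the covariate; the cause was not tested. Of the 10 genes, 2 met an unadjusted p of 0.05, but 1 with the stricter filter or quantile normalization, 0 with the covariate, 3 with centring and 1 to 4 with 1 array left out, the 4 without wildtype replicate 1. Of all genes, 6 passed the adjusted threshold, but 3 without the filter, 13 with the stricter one, 3 with centring, 18 with trend and robust, 0 with the replicate block or the covariate, 2 without both arrays of low Xist and 0 to 4 with 1 array left out. The replicate block changed no call among the 10 genes. Deviations of same-numbered arrays from their genotype means correlated at 0.14, 0.02, 0.13 and 0.00 over all genes. Arrays of different numbers were not compared in this way, so these values cannot decide whether the numbers pair samples. Both arrays of low Xist are numbered 3, and the immediate early means ranked the numbers alike in both genotypes, from 3 through 1 and 2 to 4. The main fit did not pair samples, and whether the numbers mark a shared batch is not settled. The number of arrays limits what can be seen: the intervals of the 10 log2 differences reach 0.19 to 0.33 to either side.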

Other observations

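The authors' deposited table gives unadjusted t-test p-values of 0.0209 for Tnfaip2, 0.0282 for Nfkb1, 0.0563 for Nfkbib and 0.0736 for Nfkb2, and signed folds of 1.307 for Tnfaip2 and 1.211 for Nfkb1. In limma, which borrows spread across genes, the unadjusted p was 0.00926 for Tnfaip2, 0.0251 for Nfkb1, 0.0642 for Nfkb2 and 0.214 for Nfkbib, whose within-genotype spread was among the smallest on the arrays.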
